A study of Mus musculus with 25 samples.

Results

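The genes examined here form the cell's machinery for moving newly made proteins into the endoplasmic reticulum (ER), folding them and sending them on to the Golgi. Members were taken by gene symbol: symbols beginning with Sec, Spcs, Srp, Pdia or Txndc and a number, Ssr1 to Ssr4, the Srpr symbols, and P4hb, Canx, Calr, Hsp90b1, Dnajb9, Dnajb11, Dnajc3, Creld2, Sdf2l1 and Ero1l. The rule took 70 of the 24439 genes in the RNA-seq tables and, through the deposited nearest-gene label of each peak, 200 of 65053 ATAC-seq peaks, which lay nearest to 64 genes. Of those genes 63 had an RNA-seq entry. Spcs3, a signal peptidase subunit, had peaks only, and its RNA was not analysed here.

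A protein bound for secretion carries a signal peptide that the signal recognition particle (SRP) reads as it leaves the ribosome. The ribosome docks on the SRP receptor and the chain passes through the Sec61 channel, beside which sit the TRAP complex (the Ssr proteins) and the signal peptidase that removes the peptide. Chaperones and disulfide isomerases then fold the chain, and COPII vesicles carry the folded product to the Golgi. Islet endocrine cells rely on this route for hormone production, and the unfolded protein response raises many of these genes together when folding demand increases.

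The study compared 2 mouse islet tumor lines. alpha TC1 clone 6 (αTC1) is a single clone of a glucagon-producing line and beta-TC-6 (βTC6) is an insulin-producing line, and as background both lines arose from tumors driven by a viral T antigen, placed under the glucagon gene promoter in the former and under the insulin gene promoter in the latter. RNA-seq was made from 3 samples of each line, and ATAC-seq, which marks open chromatin by transposase insertion, from 5 samples of each line and from 9 mixtures holding 10% to 90% αTC1 cells. No sample was treated. The lines were grown in media with different serum content and supplements, so line and medium cannot be told apart. Nothing in the descriptions says that the replicates came from separate cultures, so p-values measure the spread between these samples, which may be technical.

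RNA-seq expected counts per library ranged from 21954031 to 26033482 and ATAC-seq reads in peaks of the pure lines from 4397851 to 10374903. The line markers matched the labels. In αTC1 the glucagon gene Gcg lay between 12113 and 14406 FPKM (fragments counted per transcript length and library size) and Ins2 at or below 0.64. In βTC6, Ins2 lay between 23541 and 35748 FPKM, Ins1 between 1599 and 2389 and Gcg between 172 and 267. Somatostatin (Sst) was listed at 0 in all αTC1 libraries and at 207 to 325 FPKM in βTC6, where the delta cell factor Hhex was at or below 0.02 FPKM. Pancreatic polypeptide (Ppy) varied between the βTC6 libraries, at 50.8, 3.70 and 23.4 FPKM, and was at or below 0.10 in αTC1. The summed FPKM of 8 markers of blood, vessel, stroma, duct and acinar cells reached at most 1.08 in any library, and the part of other islet hormones in the values below was not tested.

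The promoters that hold stress-response elements are shown first. Promoter windows of 300 bases (250 before to 50 after the start site) came from RefSeq on GRCm38.p6, 64 of the 71 member names matched, and each window printed here was placed on mm9 by an exact, single match. The ER stress response element (ERSE) was searched on both strands as CCAAT, then 9 bases of any kind, then CCACG. It occurred in 0.119% of 32851 promoters, or at 0.137% of 27025 genes, and at 6 of the 64 matched members (9.38%): Calr, Canx, Creld2, Dnajc3, Hsp90b1 and Pdia6. All but Pdia6 were named singly in the member rule, so the share among members depends on that choice and tests nothing. ERSE-II, searched as ATTGG, then 1 base, then CCACG, occurred in 0.0365% of promoters (0.0444% of genes), and Dnajb11 was the member that held it. The Xbp1 core TGACGTGG occurred in 0.676% of promoters (0.714% of genes), and the 5 members with it were Sec16b, Sec24d, Sec23a, Txndc5 and Txndc11. The short box CCACG, which lies inside ERSE and ERSE-II, occurred in 32.8% of promoters and is shown no further. The windows below read 5′ to 3′ along the gene, with the fixed letters of the motif in capitals. Those of Sec23a, Txndc5 and Txndc11 are not printed, and the RNA of Txndc5 and Txndc11 did not pass the test. On the minus strand of mm9 lie Calr (chr8:87370934-87371032), Canx (chr11:50139262-50139360) and Hsp90b1 (chr10:86168238-86168336, the element nearer the start of the pair it holds). On the plus strand lie Creld2 (chr15:88649910-88650008), Dnajc3 (chr14:119337009-119337107), Pdia6 (chr12:17273257-17273355), Dnajb11 (chr16:22857917-22857943), Sec24d (chr3:122970348-122970413) and Sec16b (chr1:159436843-159436926).
Calr: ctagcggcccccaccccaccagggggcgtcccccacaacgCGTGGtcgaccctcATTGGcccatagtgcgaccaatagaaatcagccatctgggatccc
Canx: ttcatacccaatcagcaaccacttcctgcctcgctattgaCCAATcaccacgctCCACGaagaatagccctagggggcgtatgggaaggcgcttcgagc
Creld2: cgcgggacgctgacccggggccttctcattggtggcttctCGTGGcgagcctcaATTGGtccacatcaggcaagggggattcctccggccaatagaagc
Dnajc3: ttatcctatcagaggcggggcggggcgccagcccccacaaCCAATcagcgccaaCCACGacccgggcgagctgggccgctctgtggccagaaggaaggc
Hsp90b1: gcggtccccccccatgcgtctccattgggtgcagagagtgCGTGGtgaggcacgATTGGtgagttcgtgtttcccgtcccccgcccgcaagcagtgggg
Pdia6: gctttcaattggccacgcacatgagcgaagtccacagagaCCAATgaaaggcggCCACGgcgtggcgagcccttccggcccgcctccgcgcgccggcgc
Dnajb11: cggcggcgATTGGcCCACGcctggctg
Sec24d: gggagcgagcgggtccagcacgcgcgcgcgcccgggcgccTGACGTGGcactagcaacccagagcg
Sec16b: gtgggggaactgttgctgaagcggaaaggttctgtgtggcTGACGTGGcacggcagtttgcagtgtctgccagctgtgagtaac
The elements of Calr, Creld2 and Hsp90b1 lie in reverse, so their capitals read CGTGG and ATTGG. Each of these motifs lay under an ATAC-seq peak; that of Hsp90b1 is labelled by its neighbor Ttc41 and is not among the 200.

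The first comparison asked how the genes differed in RNA between the lines. Most of them were higher in βTC6. Of 60 members that passed the expression filter (FPKM of at least 1 in all 3 libraries of either line), 41 were higher in βTC6 and 3 lower at a false discovery rate (FDR) under 5% by edgeR, and 16 did not pass. Among all 12195 genes tested, 38.7% were higher and 36% lower. Past a log2 fold change of 1 as well, 23 members were higher and 0 lower, against 19.1% and 12.5% of all genes. Over 2 it was 6 and 0 of the 60, against 10.2% and 4.08%. At that size members were higher about as often as genes in general. The median log2 fold change (βTC6 over αTC1 throughout) was 0.62 over the members tested and 0.01 over all genes. Scaling on the spike-in RNAs, the base of the study's own normalization, called 23 members higher and 0 lower, and fewer genes of all, 2132 higher and 1434 lower. The members it called were the same 23 with a log2 fold change over 1, so the smaller differences given below lost their call under that scaling. In 44 members the libraries of the lines did not overlap in FPKM, 39 with βTC6 above and 5 below, where 37.3% and 40.4% of all genes tested were so placed. Since the libraries are bulk, more RNA per cell and more cells that hold it cannot be told apart.

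The members took 0.766% to 0.791% of the summed FPKM in the αTC1 libraries and 1.19% to 1.59% in the βTC6 libraries. The βTC6 libraries differed among themselves. By normalized counts, 50 of the 60 members were highest within the line in βTC6 replicate 2 and 52 lowest in replicate 3, against 35.3% and 36.2% of all genes. Ins2 ranked the libraries alike, and the share of spike-in counts was 0.436%, 0.602% and 0.971% in replicates 1, 2 and 3. The part of the spike-in share in this order was not tested. Without replicate 2, 36 members were higher, and without replicate 3 it was 41.

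**Figure D1:**
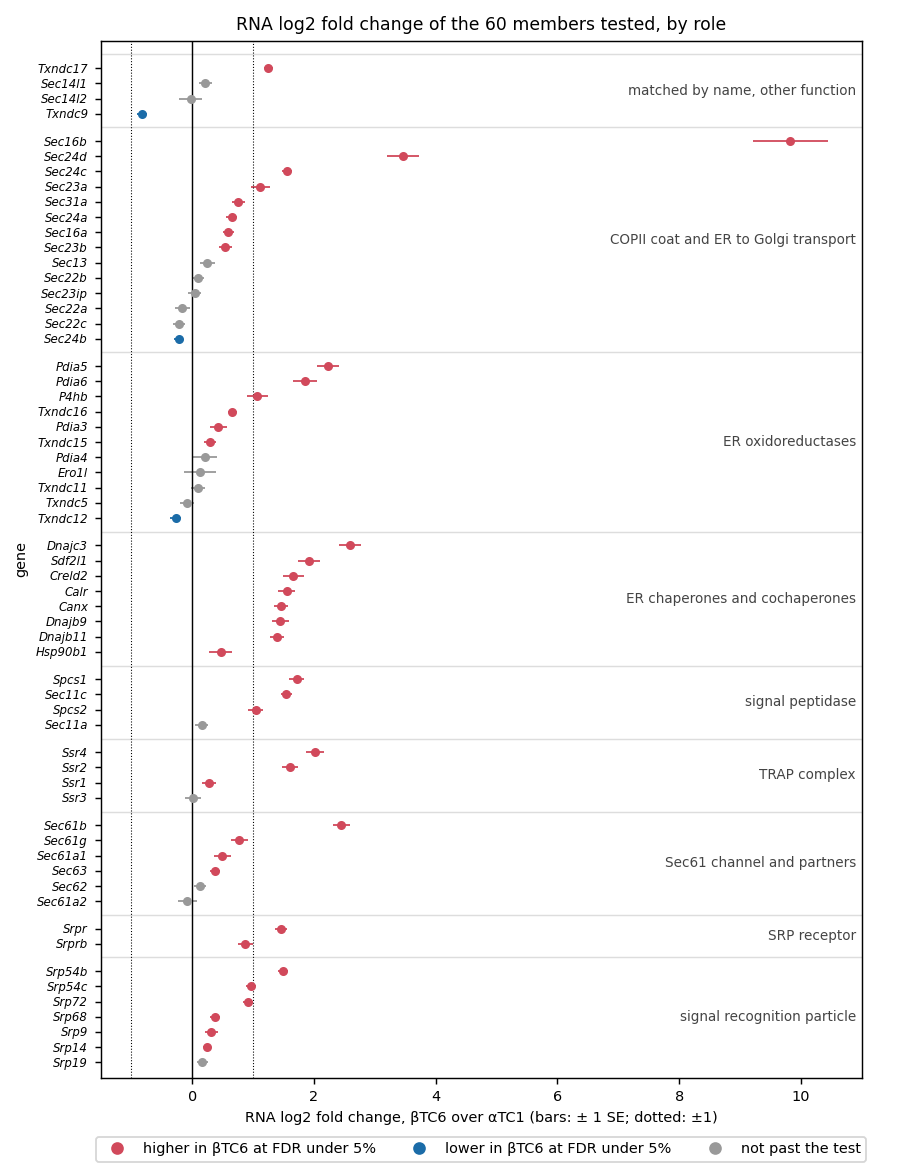
RNA log2 fold change of the 60 members tested (x axis, βTC6 over αTC1, bars ± 1 SE, 3 libraries per line), grouped by role (y axis), with red for higher and blue for lower in βTC6 at FDR under 5% and grey for not past the test. Most points lie right of 0, all 8 chaperones among them, and no member lies left of the dotted line at a log2 fold change of -1.

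The signal recognition particle is the reader of the signal peptide. Of its 7 tested genes 6 were higher in βTC6, with a median log2 fold change of 0.37, and 1 of them by more than 1. That gene was Srp54b, a copy of the GTPase subunit that binds the signal peptide, with 41.9, 38.2 and 39.2 FPKM in αTC1 and 114, 117 and 99.2 in βTC6. Its log2 fold change was 1.49 ± 0.09 (approximate SE). Reads of this gene cannot be told from those of its copies with certainty, because 71.4% of the 100-base stretches of the Srp54b transcripts also occur in Srp54a and 69.6% in Srp54c. The copy Srp54a was listed at 0 in 5 libraries and at 6.29 FPKM in βTC6 replicate 2. Counted together, the copies gave 3714 to 4056 counts in αTC1 and 8657 to 10948 in βTC6, with a log2 fold change of 1.3 ± 0.09. Srp72, which binds the particle's RNA with Srp68, was at 44.9 to 46.1 FPKM in αTC1 and 84.5 to 88.9 in βTC6, a log2 fold change of 0.92. The particle's most abundant member by FPKM, Srp14, part of the domain that slows translation, was at 118 to 121 in αTC1 and 133 to 144 in βTC6, a log2 fold change of 0.24 ± 0.07, whose call was lost without αTC1 replicate 2 and with no expression filter. The remaining member that did not pass, Srp19, had a log2 fold change of 0.17.

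Both subunits of the SRP receptor were higher in βTC6. Srpr, the subunit that docks the particle, was at 33.8, 34.1 and 28.2 FPKM in αTC1 and at 85.6, 87.6 and 75.8 in βTC6. The lowest βTC6 library was above every αTC1 library, and the log2 fold change was 1.46 ± 0.10. Srprb, its membrane anchor, had a log2 fold change of 0.87 ± 0.13.

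At the Sec61 channel the subunits differed unequally. Sec61b, the small beta subunit, was at 61.7, 68.7 and 65.3 FPKM in αTC1 and 331, 411 and 287 in βTC6. This was a log2 fold change of 2.45 ± 0.14 (edgeR, FDR 4.55e-07), and the groups did not overlap. The pore itself, Sec61a1, was at 118 to 148 FPKM in αTC1 and 158 to 217 in βTC6, with a log2 fold change of 0.50 ± 0.14. Its paralog Sec61a2 was lower in level, 18.8 to 24.0 FPKM in αTC1 and 12.6 to 21.9 in βTC6, and did not pass the test (log2 fold change -0.08 ± 0.15). Sec61g, the gamma subunit, and Sec63, which recruits the luminal chaperone, were higher by 0.77 and 0.37 on the log2 scale, while Sec62 had a log2 fold change of 0.13 and did not pass. No 100-base stretch was shared between the transcripts of Sec61a1 and Sec61a2.

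The TRAP complex, which helps some signal peptides open the channel, split in a like manner. Ssr4 was at 125, 128 and 122 FPKM in αTC1 and 525, 574 and 365 in βTC6, and Ssr2 at 99.6, 106 and 89.9 and at 293, 330 and 240. Their log2 fold changes were 2.02 ± 0.15 and 1.61 ± 0.13, and neither gene's libraries overlapped between the lines. Ssr1 had a log2 fold change of 0.28 (edgeR, FDR 0.0437). For Ssr3 the ranges overlapped, with 85.9 to 101 FPKM in αTC1 and 78.3 to 108 in βTC6, and the log2 fold change was 0.01 ± 0.13.

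Of the 4 signal peptidase subunits measured, 3 were higher by more than 1 log2. Spcs1 was at 63.6, 64.0 and 54.7 FPKM in αTC1 and 188, 221 and 166 in βTC6, a log2 fold change of 1.72 ± 0.12. The catalytic subunit Sec11c was at 39.3 to 44.0 and at 111 to 136 FPKM, a log2 fold change of 1.55 ± 0.09. The other catalytic subunit, Sec11a, was at 57.5 to 64.5 and at 56.9 to 69.1 FPKM and did not pass the test (log2 fold change 0.16 ± 0.10). Of the pair, Sec11c had the higher FPKM in βTC6 and Sec11a in αTC1. Spcs2 had a log2 fold change of 1.04 ± 0.13.

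All 8 ER chaperones and cochaperones were higher in βTC6, 7 of them by more than 1 log2. Dnajc3, a cochaperone that also restrains the stress kinase Perk, was at 8.41, 8.59 and 8.15 FPKM in αTC1 and 48.1, 61.5 and 36.1 in βTC6. Its log2 fold change of 2.59 ± 0.18 (edgeR, FDR 1.77e-06) was the largest of the group. Sdf2l1, a partner of the luminal Hsp70 cycle, followed with 21.9, 23.4 and 28.1 against 86.5, 111 and 68.5 FPKM and a log2 fold change of 1.92 ± 0.18. The lectin chaperones, which hold glycoproteins while they fold, were the most abundant of those with a change over 1. Calr was at 334, 338 and 385 FPKM in αTC1 and 989, 1160 and 854 in βTC6 (log2 fold change 1.56 ± 0.14), and membrane-bound Canx at 99.1 to 110 and at 258 to 314 (1.46 ± 0.11). Creld2, a secreted stress-response protein, was at 30.2 to 30.9 FPKM in αTC1 and 71.6 to 119 in βTC6 (1.66 ± 0.17). The J-domain proteins Dnajb9 and Dnajb11, which work with the luminal Hsp70, had log2 fold changes of 1.45 ± 0.14 and 1.39 ± 0.12. Hsp90b1, the ER Hsp90, had the smallest difference, with 496, 492 and 628 FPKM in αTC1 and 689, 902 and 555 in βTC6. Its ranges overlapped, and its log2 fold change was 0.47 ± 0.19 (edgeR, FDR 0.0461). The call of Hsp90b1 was lost under spike-in scaling.

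The 6 members with an ERSE were all higher in βTC6, with log2 fold changes from 0.47 (Hsp90b1) to 2.59 (Dnajc3), and Dnajb11 with its ERSE-II was higher by 1.39. Of all 60 members tested 41 were higher, and of all genes 38.7%. Sec61b, Pdia5 and Ssr4, with no ERSE, ERSE-II or Xbp1 core in their windows, were higher by 2.45, 2.23 and 2.02. Whether the motifs bear on the RNA differences was not tested. The genes with the Xbp1 core did not move together. Sec16b, Sec24d and Sec23a were higher in βTC6 (log2 fold changes 9.82, 3.46 and 1.12), while Txndc5 (-0.08) and Txndc11 (0.09) did not pass the test. A motif match describes letters in a window and is no evidence of binding.

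**Figure D2:**
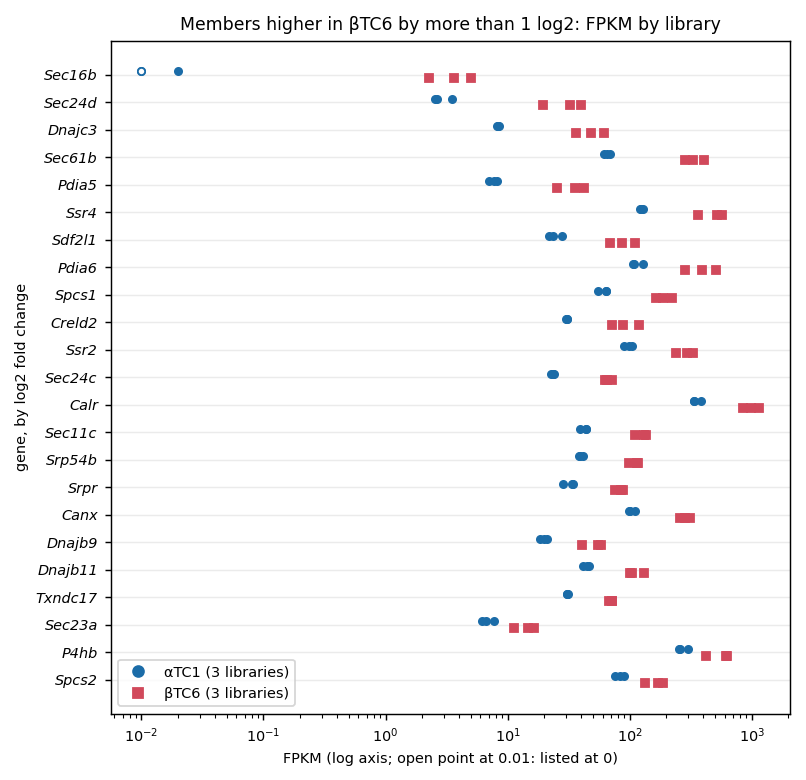
FPKM per library (x axis, log scale) of the 23 members past the test by more than 1 log2, ordered by log2 fold change (y axis), with αTC1 as blue circles and βTC6 as red squares, 3 libraries each. The lines do not overlap in any of these genes, and Sec16b is listed at 0 in 2 αTC1 libraries, drawn as open points.

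Among the ER oxidoreductases, which make and reshuffle disulfide bonds, 6 of 11 were higher in βTC6 and 1 lower, and 3 were higher by more than 1. Pdia5 was at 8.27, 7.78 and 7 FPKM in αTC1 and 35.7, 42.3 and 25.6 in βTC6, a log2 fold change of 2.23 ± 0.18. Pdia6 was at 106 to 128 and at 287 to 512 FPKM, a log2 fold change of 1.86 ± 0.20. The most abundant of the family, P4hb, was at 252, 260 and 302 FPKM in αTC1 and 614, 628 and 422 in βTC6, a log2 fold change of 1.07 ± 0.17. By contrast Pdia3, the isomerase that works with Calr and Canx, had a log2 fold change of 0.43 ± 0.14, and Pdia4 one of 0.21 ± 0.19 that did not pass. Txndc12 was lower in βTC6, at 72.1 to 86.4 against 60.9 to 66.2 FPKM (log2 fold change -0.27 ± 0.09), a call lost without αTC1 replicate 1 or 2, without βTC6 replicate 1 or 3 and under spike-in scaling. Ero1l, the oxidase that recharges the isomerases, did not pass (0.14 ± 0.26), and its αTC1 libraries were spread at 11.4, 10.3 and 22.4 FPKM. Pdia2 was near 0 in both lines and was not tested.

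The COPII coat and its partners held the largest differences. Sec16b (ENSMUSG00000026589), a scaffold of the ER exit site, had 1, 0 and 0 counts in the αTC1 libraries and 424, 597 and 260 in βTC6. Summed over libraries and scaled to their totals, 1281 counts against 1 gave a ratio of 1196, with an exact 95% interval from 214 to 47277 that covers counting error only. The size of the difference is therefore poorly known, and the fitted log2 fold change of 9.82 ± 0.62 depends on the small count added in the fit. Its relative Sec16a was at 15.9 to 16.6 FPKM in αTC1 and 25.2 to 32.6 in βTC6 (log2 fold change 0.60 ± 0.09), so the βTC6 level of Sec16b, 2.27 to 5.06 FPKM, was below that of Sec16a.

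Of the Sec24 proteins, which select cargo for the vesicle, Sec24d (ENSMUSG00000039234) was at 2.65, 3.52 and 2.53 FPKM in αTC1 and 32.2, 40.1 and 19.7 in βTC6. Its log2 fold change was 3.46 ± 0.26 (edgeR, FDR 3.12e-06). Sec24c was at 24.0, 23.7 and 22.7 and at 64.9, 71.9 and 63.0 FPKM (1.56 ± 0.08), and Sec24a had a log2 fold change of 0.65 ± 0.09. The fourth paralog, Sec24b, was at 24.3 to 28.8 FPKM in αTC1 and 21.5 to 22.7 in βTC6 (-0.22 ± 0.07; edgeR, FDR 0.0233). This small difference lost its call without αTC1 replicate 1 or 3, without βTC6 replicate 3 and under spike-in scaling, with its sign kept. In αTC1 the order by mean FPKM was Sec24b (26.9), Sec24c (23.5), Sec24a (14.6) and Sec24d (2.90). The ranges of neighbors in that order did not overlap, although the lowest Sec24b library (24.3) and the highest Sec24c library (24.0) were close. In βTC6 it was Sec24c (66.6), Sec24d (30.7), Sec24b (22.3) and Sec24a (19.5), where the Sec24d range of 19.7 to 40.1 overlapped those of Sec24b and Sec24a and the latter did not overlap each other.

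Of the partner coat genes, Sec23a was at 6.14 to 7.70 FPKM in αTC1 and 11.2 to 16.4 in βTC6 (log2 fold change 1.12 ± 0.16). Its paralog Sec23b was at 29.9 to 32.9 and at 36.9 to 48.8 (0.54 ± 0.11), and thus remained the more abundant of the pair in both lines. Sec31a of the outer cage was higher by 0.76 on the log2 scale. The other cage protein, Sec13, the most abundant of the group in αTC1, was at 81.8 to 110 FPKM in αTC1 and 109 to 125 in βTC6 and did not pass (0.25 ± 0.13). Sec22a, Sec22b and Sec22c, named for a vesicle fusion protein, and the exit-site protein Sec23ip did not pass the test either. Sec31b was at or below 0.26 FPKM in all libraries and was not tested.

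The symbol rule also took 11 genes whose products act elsewhere. Of the 4 tested, the cytosolic thioredoxin Txndc17 was higher in βTC6 (30.5 to 31.2 against 67.9 to 72.0 FPKM, log2 fold change 1.25 ± 0.08). Txndc9, a regulator of a cytosolic chaperonin, was lower, at 74.3, 71.5 and 69.5 FPKM in αTC1 and 45.6, 46.7 and 44.7 in βTC6 (-0.82 ± 0.09). The lipid-transfer proteins Sec14l1 and Sec14l2 did not pass. Sec1, Sec14l3, Sec14l4, Sec14l5, Txndc2, Txndc3 and Txndc8 were at or near 0 and were not tested.

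Other genes of the route lie outside the symbol rule. Of 37 such genes tested, 26 were higher in βTC6 and 5 lower, and 14 were higher and 1 lower by more than 1 log2, beside 38.7% and 36% of all genes and 19.1% and 12.5% past that fold. The list was written with earlier results of these data known. The largest difference was that of Ero1lb, the islet-enriched oxidase, at 10.8, 11.5 and 14.3 FPKM in αTC1 and 203, 212 and 202 in βTC6 (log2 fold change 4.13 ± 0.13). It thus differed from its paralog Ero1l, whose libraries overlapped. The oligosaccharyltransferase, which adds glycans at the channel, had 7 of its 9 genes higher and each of these by more than 1, led by Dad1 (2.32 ± 0.12) and Magt1 (2.31 ± 0.15). Its catalytic subunits differed in direction, with Stt3a at 25.1 to 29.5 FPKM in αTC1 and 53.1 to 67.8 in βTC6 and Stt3b at 54.2 to 58.4 and 26.3 to 31.3. The luminal Hsp70 Hspa5 was at 240 to 284 and at 513 to 724 FPKM (1.33 ± 0.15). Tmx3, a membrane oxidoreductase, was lower in βTC6 (-1.06 ± 0.10).

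The second comparison asked how the chromatin nearest to these genes differed. Peak values are normalized read counts, scaled by the authors for library size and composition (TMM), and were tested with limma on log2 of the value plus 1. Of the 200 peaks 81 were more open in βTC6 and 77 less open, against 39.9% and 38.1% of all peaks. Past a log2 fold change of 1 it was 54 and 23, against 29.8% and 19.2%. These counts depended on low values: with a pseudocount of 5 in place of 1 they were 26 and 10, and among the 135 peaks with a mean of at least 5 normalized reads 47 were more open and 65 less open at any size. By position, of the 63 peaks within 2 kb of a start site, 13 were more open in βTC6 and 41 less open, where 23.4% and 52.3% of all peaks so placed were called. Of the 137 farther away, 68 were more open and 36 less open, against 44.6% and 34% of all peaks at such distances, so a split by position was also present over all peaks.

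At the promoters, accessibility and RNA often differed in direction. Of the 22 members with RNA higher by more than 1 log2 and a promoter peak, 7 had a peak more open in βTC6, 12 a peak less open and 3 a peak that did not pass. Over all 1786 genes with such RNA, 59.8% of the peaks were more open and 17.6% less open. Creld2 is a plain case, with RNA higher in βTC6 and a promoter peak (chr15:88649394-88650453) between 70.8 and 84.2 normalized reads in αTC1, with a median of 72.8, and between 37.7 and 42.5 in βTC6, with a median of 41.1. The lines did not overlap, and the peak's log2 fold change was -0.87 ± 0.08. The Dnajb11 peak behaved alike, at 78.6 to 96.2 and 36.9 to 52.7 normalized reads (-0.92 ± 0.10), and so did that of Calr, at 66.3 to 78.5 and 42.3 to 54.8 (-0.64 ± 0.09).
Further genes with higher RNA and a less open promoter were Ssr2 (peak log2 fold change -0.89), Sec11c (-0.67), Pdia6 (-0.66), Pdia5 (-0.61), P4hb (-0.50), Sec61b (-0.47), Sec23a (-0.46), Spcs2 (-0.31) and Sdf2l1 (-0.31). Canx, Dnajb9 and Srpr had peaks that did not pass. The direction depended on the scaling: when quantile normalization was added, 7 of the 22 peaks were more open and 6 less open, against 61.5% and 10.2% over all genes with such RNA, the peaks of Dnajb9, Sec23a, Sdf2l1 and Spcs2 changed sign, and those of P4hb, Sec61b and Calr lost their call. The Dnajb9 peak was called more open under that scaling, so the 7 more open peaks were not the same 7 as before. Over the 63 promoter peaks that scaling gave 15 more open and 26 less open.

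The promoters more open in βTC6 included those of the COPII genes with the largest RNA differences. The peak at the start of Sec24d (chr3:122969947-122971227) lay between 17.9 and 23.5 normalized reads in αTC1, with a median of 19.7, and between 39.9 and 51.3 in βTC6, with a median of 46.4. Its log2 fold change was 1.12 ± 0.10 (limma, FDR 5.6e-09). The peak at the start of Sec16b (chr1:159436801-159437131) was small, at 0.601 to 2.11 and 4.23 to 6.99 normalized reads, and did not overlap between the lines (1.28 ± 0.22). Both peaks span the Xbp1 core printed above. Dnajc3 (chr14:119336520-119337597) was at 42.6 to 52.0 and 72.3 to 91.7 normalized reads (0.86 ± 0.09), Spcs1 had a peak log2 fold change of 0.84, Txndc17 of 0.31 and Sec24c of 0.27. The calls of the last pair were lost when certain single libraries were left out, for Txndc17 αTC1 replicate 3, 4 or 5 or βTC6 replicate 1 or 4, and for Sec24c αTC1 replicate 2 or 3 or βTC6 replicate 1. The Srp54b peak held at most 2.05 normalized reads in any library, so its log2 fold change of 0.64 rests on few reads.

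**Figure D3:**
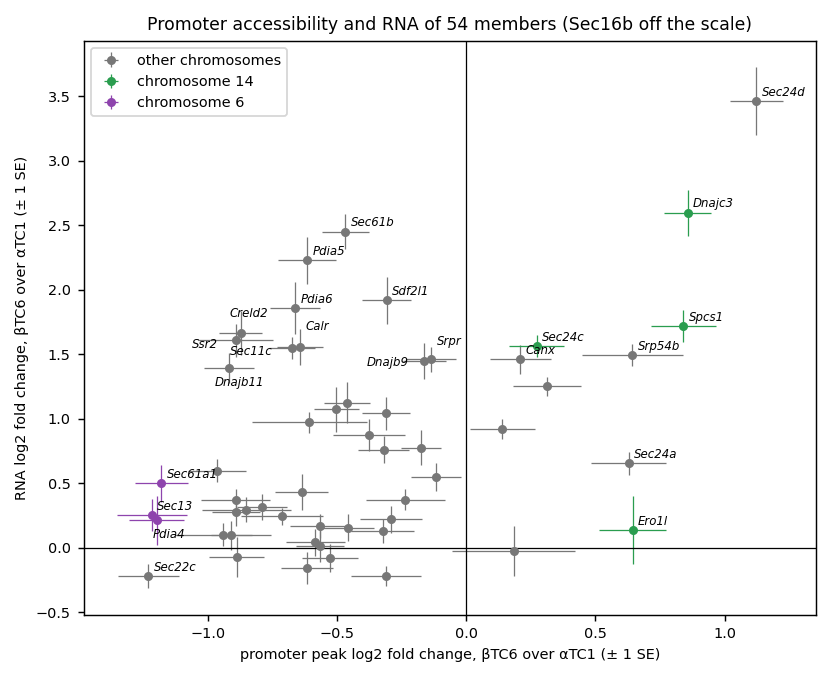
RNA log2 fold change (y axis) against that of the nearest peak within 2 kb of the start (x axis) for 54 members (Sec16b lies off the scale), both βTC6 over αTC1 with bars of ± 1 SE, and chromosomes 14 and 6 colored. A group with RNA log2 fold changes above 1 lies left of 0, and Sec24d, Dnajc3 and Spcs1 lie at the upper right.

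Across the 55 members with both values Pearson's r was 0.544, and 0.452 without Sec16b. This is a description across genes that share the same libraries. Position in the genome moved with these values. Over all genes, chromosome 14 had a median RNA log2 fold change of 1.2 and a median promoter peak log2 fold change of 0.79, the highest of the chromosomes. Dnajc3, Spcs1, Sec24c, Txndc16 and Ero1l lie there, with RNA log2 fold changes of 2.59, 1.72, 1.56, 0.66 and 0.14. Chromosome 6 had medians of -0.76 and -1.09, and the promoter peaks of its members Sec61a1, Pdia4 and Sec13 were at -1.18, -1.20 and -1.22. Of the 55 promoter peaks, 45 (81.8%) lay within 0.5 of their chromosome's median, and so did 74.8% of those of all 9515 genes. The members farthest from it were Sec16b, 2.18 above a chromosome 1 median of -0.90, and Sec24d, 1.56 above. Without chromosome 14, a choice made after seeing the data, the RNA counts were 37 higher and 3 lower of 55, and 20 higher by more than 1. The part of the chromosome in these results was not tested.

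Away from promoters, Sec16b was the nearest gene of 16 peaks, of which 11 were more open in βTC6 and 3 less open. Of all peaks 2 kb or more from a start site, 44.6% were more open and 34% less open. The strongest Sec16b peak (chr1:159817192-159817862) is intergenic, with a deposited distance of 361226 bases from a start site within the gene. That start site is not the one at the promoter peak described above. The strongest peak held 1.26 to 3.18 normalized reads in αTC1, with a median of 2.46, against 24.5 to 29.7, with a median of 26.4, in βTC6. No library of either line came near the other (log2 fold change 3.03 ± 0.18). Sec23a was the nearest gene of 9 peaks away from promoters, 7 more open and 0 less open. Its strongest (chr12:59904975-59905872), intergenic and 207580 bases away, had the largest test statistic of the 200, with 0.421 to 3.01 normalized reads in αTC1 (median 1.40) and 43.9 to 59.9 in βTC6 (median 48.7). The log2 fold change was 4.49 ± 0.21 (limma, FDR 4.68e-13). An intronic peak of Sec24d (chr3:123010909-123011605) was at 1.77 to 3.18 and 20.9 to 31.5 normalized reads (2.85 ± 0.17), beside the more open promoter and higher RNA of that gene.

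Of such distant peaks, Sec31a had 5 more open and 1 less open of 7, Sec61b 5 and 1 of 8, and Spcs3 8 and 1 of 11. Dnajb9 had 7 more open and 3 less open of 16, close to the 44.6% more open over all peaks at such distances. A nearest-gene label at such distances names the closest start site and does not show which gene a peak acts on. Sec23ip stood opposite, with all 7 of its peaks, its promoter peak among them, less open in βTC6 while its RNA log2 fold change was 0.04 ± 0.11. The strongest (chr7:135914474-135914933) lies in its own intron and was at 9.02 to 16.2 normalized reads in αTC1 and 0.282 to 1.49 in βTC6 (-2.82 ± 0.23). On chromosome 7 as a whole the median log2 fold change was -0.57 over all peaks and -0.65 over promoter peaks. The peak less open in βTC6 with the largest statistic (chr1:184034962-184035775) is intergenic, at -19499 bases from the start of Srp9, and was at 28.2 to 39.4 and 1.44 to 2.70 normalized reads (-3.41 ± 0.17), although Srp9 RNA was slightly higher in βTC6 (0.32 ± 0.10). Another (chr16:11143998-11144406), labelled by Txndc11, lies in an intron of the neighbor Zc3h7a and was at 165 to 229 and 67.5 to 80.8 (-1.43 ± 0.09).

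**Figure D4:**
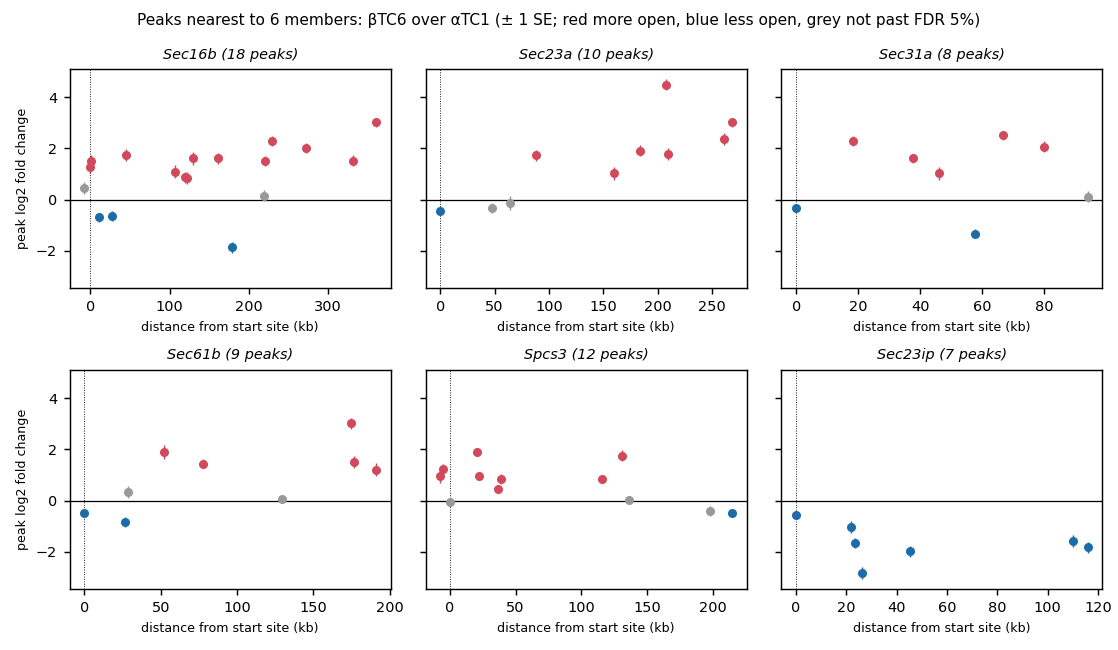
Log2 fold change (y axis, βTC6 over αTC1, bars ± 1 SE, 5 libraries per line) of every peak nearest to 6 members against its distance from the start site in kb (x axis), with red for more open, blue for less open and grey for not past FDR 5%. The 5 genes Sec16b, Sec23a, Sec31a, Sec61b and Spcs3 have mostly red points beyond the start, and all 7 points of Sec23ip are blue. Distances are as deposited, and those of Sec16b refer to different start sites of that gene.

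The mixtures combine the same lines in set proportions, so a peak chosen for its difference between the pure lines must follow the percentage, and the relations below describe how closely it did and test nothing further about these genes. The Sec23a peak held 4.88 normalized reads in the mixture with 10% βTC6 cells, 25 at 50% and 54.1 at 90%. Over the 9 mixtures Pearson's r with the βTC6 percentage was 0.981 (two-sided exact permutation test, p = 1.10e-05, adjusted p = 2.20e-05) and Spearman's rho 0.983 (exact permutation p = 4.96e-05, adjusted p = 9.92e-05). The Srp9 peak went the other way, from 29.5 normalized reads at 10% to 20.2 at 50% and 6.32 at 90%, with r of -0.972 (exact permutation p = 2.20e-05, adjusted p = 2.20e-05) and rho of -0.967 (exact permutation p = 0.000165, adjusted p = 0.000165). Without the outermost mixtures r was 0.985 and -0.958 over 7. These were the 2 relations computed, and adjustment was over both. Reads in peaks of the mixtures ranged from 5277983 to 7294832.

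**Figure D5:**
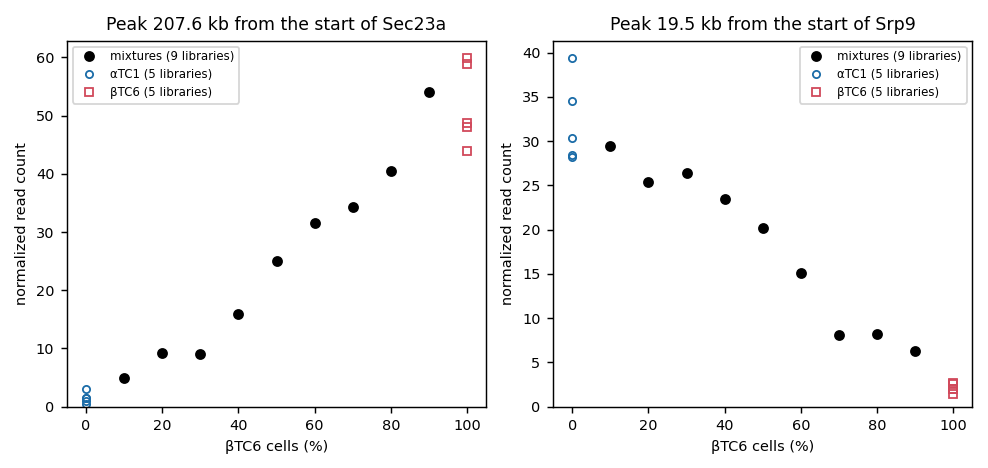
Normalized read count (y axis) of the Sec23a and Srp9 peaks against the percentage of βTC6 cells (x axis) in 9 mixtures (black), with the 5 pure libraries of each line as open symbols at 0% and 100%. The Sec23a peak climbs from 4.88 at 10% to 54.1 at 90%, and the Srp9 peak goes from 29.5 to 6.32.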

How the data were processed

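RNA-seq was measured in 3 αTC1 and 3 βTC6 samples and ATAC-seq in 5 of each and 9 mixtures, 25 samples in all, mapped by the labels. The authors processed ATAC-seq reads with Trimmomatic 0.32 (trimming), BWA 0.7.9a (alignment, mm9), Picard 1.95 (duplicates), MACS2 2.1.0 (peaks of each library) and DiffBind 2.2.5 (consensus peaks). The deposited signal values are read counts normalized by TMM. Whole reads were recovered from them: 100% of the values were whole multiples of the value of 1 read, within 0.001. No value was below 1 read, so 1 is the minimum of the table, held by 885 to 2843 peaks in each pure library. The deposited RNA-seq expected counts and FPKM came from Trim Galore 0.40, Bowtie2 and RSEM 1.2.12, run by the authors (versions from the submitters' processing notes). The kit was stranded, but RSEM was run at its defaults, which do not use strand, so reads of overlapping genes on opposite strands cannot be told apart. Deposited columns that class peaks by the authors' own comparison were not used, and 0 columns of sample values were left over.

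The 12195 genes at or above an FPKM of 1 throughout either line (spike-ins left out) were tested with edgeR 4.0.16 (glmQLFit, glmQLFTest, TMM) in R 4.3.3 on expected counts rounded to whole numbers, and peaks with limma 3.58.1 (eBayes with trend) on log2(normalized read count + 1). Both were adjusted by Benjamini-Hochberg over all features and called at FDR under 5%. The study scaled RNA counts on spike-ins with RUVSeq, which was not used here. The SE of a log2 fold change is that of the fit. The counting interval of a ratio is Clopper-Pearson (95%). Peaks and genes were placed with GENCODE vM1 on mm9. Mixtures and sequences were handled in Python 3.11.15 with scipy 1.17.1, numpy 2.4.6, pandas 2.3.3 and matplotlib 3.10.9.

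In tests on simulated data with 200 changed features, edgeR called 93 of 100 genes at a log2 change of 1 and 99 of 100 at 2 among 12195, and limma 86 and 99 of 100 peaks among 65053. The members and lists were chosen with earlier results of these data known. Genes named by rule were those past FDR 5% with an absolute log2 fold change over 1, in each role the most abundant and the most different, the 3 most different of the other pathway genes, and peaks by the largest test statistics. Other genes named with values were chosen after their values were seen. Alternatives were DESeq2 1.42.0, other scalings, filters, units and pseudocounts, a replicate block, and leaving out libraries.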

Additional observations from a re-analysis of the deposited data

Results flagged for a closer look

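Among the 28 named peaks, in each line's 5 libraries, 6 of 56 groups held a library apart from the rest by Dixon's ratio (critical value 0.71), and chance gives about 1 in 20. The Srp54b promoter peak had 1 αTC1 library at 0.702 normalized reads, the others being between 0.136 and 0.150, which is 1 read each, the lowest value the deposited table holds in any library, so the ratio there is set by that minimum. The Creld2 promoter peak had an αTC1 library at 84.2, above 70.8 to 74.1. The Txndc11 peak had an αTC1 library at 165, below 216 to 229. In βTC6, the Sec23a promoter peak had a library at 67.3, below 84.0 to 89.6, the Sdf2l1 promoter peak one at 33.2, below 40.5 to 43.4, and the intronic Sec24d peak one at 31.5, above 20.9 to 24.0. Causes of these values were not tested.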

How the results depend on the processing

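Members higher in βTC6 numbered 41 and went to 23 with spike-in scaling, where 0 were lower. Those higher by more than 1 log2 were 23 there too. The 3 lower members became 0 with spike-in scaling, 5 with limma on log2(FPKM + 1) or log2(FPKM + 0.1), and 1 without αTC1 replicate 1 or without βTC6 replicate 3. Leaving out each library gave 36 to 41 members higher, 1 to 4 lower, 20 to 24 higher by more than 1 and 0 lower by more than 1. For peaks it gave 75 to 81 more open, 71 to 76 less open, 51 to 56 more open by more than 1 and 22 to 25 less open by more than 1. With only the peaks of a mean of at least 5 normalized reads, of which there were 135, 47 were more open and 65 less open, 28 and 16 by more than 1, so that less open peaks became the more frequent, as over all 42867 such peaks (15044 and 19234). With a pseudocount of 5, 26 were more open and 10 less open by more than 1. Replicates 4 and 5 alone gave 65 more open and 47 less open. Under quantile normalization the promoter peaks of Dnajb9, Sec23a, Sdf2l1 and Spcs2 turned to 0.35, 0.0331, 0.0813 and 0.0633 on the log2 scale. The causes were not tested, other than that the mean filter tests fewer peaks and the larger pseudocount shrinks log2 fold changes of low values. Leaving out chromosome 14 and counting the Srp54 copies as 1 gene were chosen after seeing the data. The former gave 73 peaks more open and 77 less open of 192, and the latter 40 members higher and 3 lower of 59. Recovered reads tested with edgeR gave 25913 peaks more open and 24484 less open over all peaks, and 80 and 76 among the members'.

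Correlations of the deviations of same-numbered libraries between the lines were -0.036, 0.021 and -0.009 for RNA-seq and 0.0185, -0.0019, 0.0216, 0.0227 and 0.069 for ATAC-seq, under 0.1 throughout, so the numbers were not taken to pair samples. In ATAC-seq, replicates 4 and 5 correlated best with their own number, and the others did not all do so. With a replicate block the counts were 41 higher and 3 lower members, and 81 more open and 76 less open peaks. The mixture relations kept their direction and passed in each alternative, with r of 0.979 to 0.985 and -0.985 to -0.953. As said above, peaks chosen in the pure lines must do so. The alternative that added 4 pure libraries used libraries that had served in that choice. Depth limits low genes and peaks: with 0 or 1 count per library in αTC1, the ratio of Sec16b has a wide counting interval.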
